A study of Mus musculus with 3 samples.

Results

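The genes described here encode the SR proteins and the heterogeneous nuclear ribonucleoproteins (hnRNPs), the 2 large families of RNA-binding proteins that steer splice site choice. Members were taken by symbol: every Srsf gene with a number, Tra2a, Tra2b and every gene whose symbol starts with Hnrnp, provided that it had at least 1 transcript annotated as protein coding. The rule found 33 genes of the 55450 quantified, 13 of the SR family with its Tra2 relatives and 20 hnRNP genes, and 21901 of all genes carry a coding transcript. It used no measured value. The RNA came from primary macrophages grown out of the bone marrow of C57BL/6J mice and exposed to 100 ng/mL of a bacterial lipid stimulus for 180 min. The description of the samples calls the stimulus lipid A, and their source names call it lipoprotein A. There were 3 polyadenylated RNA libraries, each from 1 µg of RNA, labelled as biological replicates 1, 2 and 3 of this 1 group, and all carry the same donor identifier. No untreated cells were analysed here, so no value below is a response to the stimulus, and the spread between libraries may be technical in part. What was compared is how each gene's transcripts divide among annotated types within these cells.

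SR proteins bind enhancer sequences in exons through RNA recognition motifs and recruit the spliceosome with arginine and serine rich tails. hnRNPs coat nascent transcripts and often act through silencer sequences. Many genes of both families limit their own product by alternative splicing. An included or altered exon brings a premature stop codon, a "poison exon" where the exon itself holds the stop, and the transcript becomes a target of nonsense-mediated decay, the surveillance pathway that removes messages with a stop codon upstream of a later exon junction. Other transcripts keep an intron and are mostly held in the nucleus. In the annotation used here both kinds have their own labels, nonsense-mediated decay and retained intron, and levels below are in TPM, transcript abundance corrected for transcript length and scaled to a fixed library total. A transcript's label is set by its annotated structure, so a share is not a measure of decay.

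The annotation, GENCODE M21 on mm10, lists 296 transcripts of the 33 genes. Of these, 80 are retained intron transcripts of 24 genes, 39 are nonsense-mediated decay transcripts of 21 genes, 139 are protein coding and 38 of 11 genes are processed transcripts, which have no annotated reading frame. Libraries held 24446798, 34636953 and 60590113 expected counts of mouse transcripts in replicates 1, 2 and 3. Of a fixed list of macrophage markers, 8 of 8 reached 1 TPM in every library, with summed levels of 29264, 19349 and 23771 TPM. Of the neutrophil list, 3 of 6 were detected, with sums of 83.2, 711 and 48.2 TPM in replicates 1, 2 and 3. The highest of this list was S100a9 at a mean of 168 TPM, and the lowest was Ly6g at 0. The T cell list had 1 of 4 detected, Lck, at a mean of 35.3 TPM, and the B cell list 0 of 4. The part of other cell types in the values below was not tested. Every library has 2 deposited quantifications. The one built on transcriptome alignments is called alignment-based here, and the one that needs reads and an index only is called alignment-free. Values are from the alignment-based table unless the other is named.

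The stop codons of the nonsense-mediated decay transcripts show the structures at stake. In all 39 transcripts the stop lies more than 50 bases before the last exon junction, against 4744 of 4776 over all detected genes. Since the label is set by annotated structure, this distance is no result about the members. The counts here are of transcripts, and several transcripts of a gene can end at the same stop, as the 3 of Tra2b do. In the SR family, 14 of 19 transcripts (73.7%) have a stop outside every exon of the gene's coding transcripts. In 3 of 19 (15.8%) the stop is also that of a coding transcript. Among hnRNP genes 3 of 20 transcripts (15%) have a stop outside coding exons and 9 of 20 (45.0%) share theirs with a coding transcript. Over all detected genes with such transcripts the shares are 33.5% outside and 5.95% shared. An internal exon absent from every coding transcript occurs in 21 of the 39 (53.8%), against 27.5% over all genes. The following stretches, read from GENCODE M21 transcripts, are shown because they carry these stops. Each gives the last 27 coding bases in lower case and the stop codon in capitals, 5′ to 3′.
Srsf3-201, stop at chr17:29039485-29039487, plus strand: accatcatgtctcttctcaccaccctcTGA
Tra2b-206, stop at chr16:22259181-22259183, minus strand: aatgagtatttgaagctcaggaataagTGA
Tra2a-202, stop at chr6:49252965-49252967, minus strand: aaaaaattgaacagaagattggtcagaTAG
Srsf7-203, stop at chr17:80205054-80205056, minus strand: aggtttcttcgtttgagtcagtcgcctTGA
Srsf4-204, stop at chr4:131884388-131884390, plus strand: gtaacccggttgtctcatgccccagctTAG
Srsf6-201, stop at chr2:162932964-162932966, plus strand: gccatgacgacagcagccttttgccatTAG
Hnrnpa1-203, stop at chr15:103244012-103244014, plus strand: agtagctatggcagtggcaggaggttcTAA
Hnrnpdl-205, stop at chr5:100038593-100038595, minus strand: attctccgcgtgcccgctggaccccagTAG
Hnrnpu-206, stop at chr1:178325281-178325283, minus strand: gtccatgtgaatgtgctgtgtgaagagTAA
The Srsf3, Tra2b and Tra2a stops fall in internal exons that no coding transcript of the gene contains, of 456 bases (chr17:29039454-29039909), 276 bases (chr16:22258986-22259261) and 306 bases (chr6:49252803-49253108). The Srsf7 exon of this kind has 460 bases (chr17:80204622-80205081). The exon with the Srsf6-201 stop is absent from Srsf6-203, the main coding transcript, but a short coding transcript of Srsf6 at 0 TPM ends at the same stop. The stop of Hnrnpa1-203 is a stop of a coding transcript as well.

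**Figure D1:**
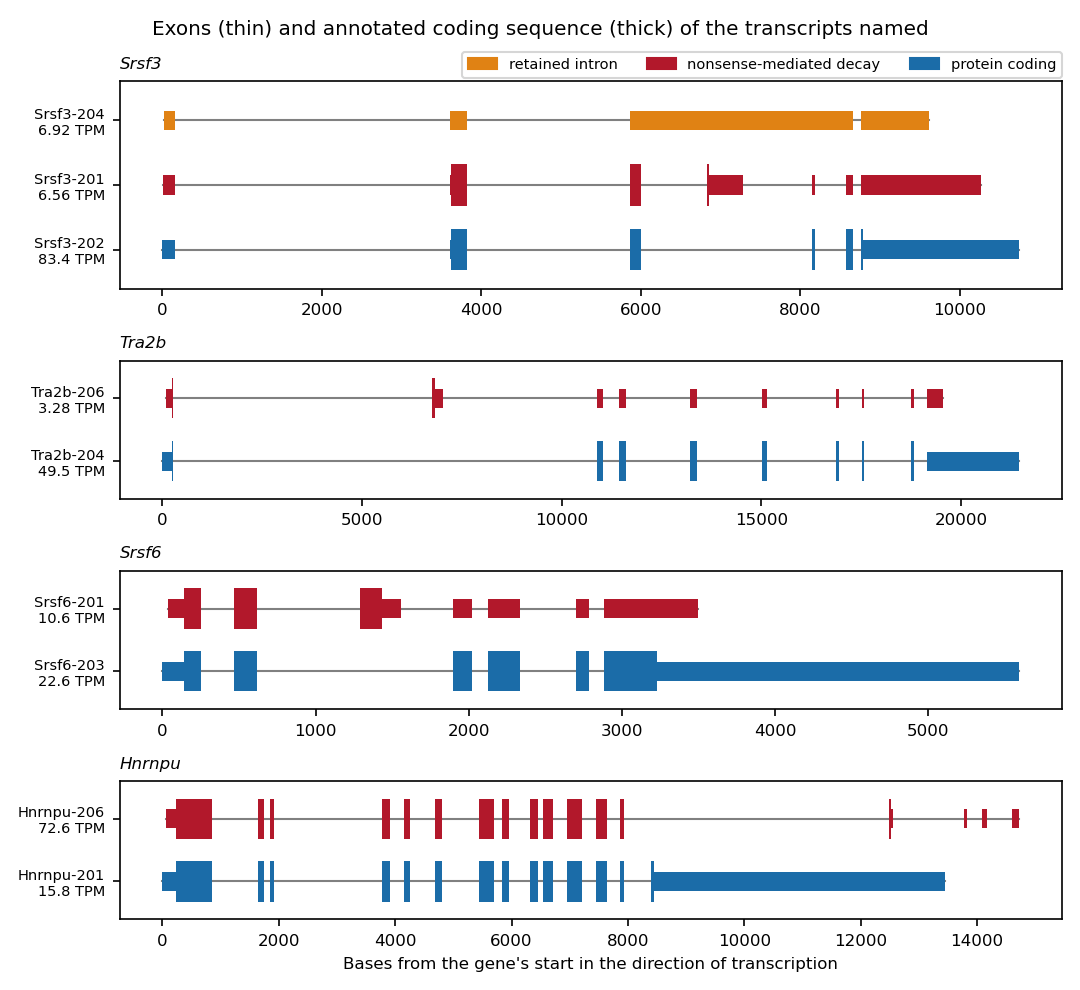
Exon maps of retained intron (orange), nonsense-mediated decay (red) and protein coding (blue) transcripts of Srsf3, Tra2b, Srsf6 and Hnrnpu, with bases from the gene's start on the x axis, thin boxes for exons, thick boxes for annotated coding sequence and the mean TPM over 3 libraries under each name. In Srsf3-201 and Tra2b-206 the reading frame ends inside an exon that the coding transcript skips. Hnrnpu-206 shares the exons of the coding transcript but has only a short piece of the last one, in which its reading frame ends. It continues into other exons further downstream.

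Among the 80 retained intron transcripts, 30 (37.5%) contain at least 1 whole intron of a coding transcript, against 31.1% over all detected genes. They hold 33 distinct introns, as annotated, in 17 genes, 21 to 2244 bases long with a median of 326 bases and a median GC content of 35.7%. The entry of 21 bases, in Srsf5-212, consists almost only of G and T, and whether it is a spliced intron was not tested. All 33 begin with GT and end with AG. Ends of introns kept in the most abundant retained intron transcripts of 4 genes are given next, since these transcripts carry most of the retained intron TPM of Srsf3, Srsf5 and Srsf7. The donor line has 9 exon bases, then the first 6 intron bases in capitals and 9 more. The acceptor line has 19 intron bases, the final AG in capitals and 6 exon bases.
Srsf3-204 donor, intron chr17:29038625-29040774: tcggcgcagGTACTTgagagagca
Srsf3-204 acceptor, same intron: ttttactgtttctgcttctAGatcccc
Srsf5-212 donor, intron chr12:80947866-80949094: agctggcagGTTTGTtgaaataca
Srsf5-212 acceptor, same intron: acataattgtcttgtgttaAGgatctc
Srsf7-206 donor, intron chr17:80204388-80205261: aagaagcagGTATTTaattaatga
Srsf7-206 acceptor, same intron: tttttctaacttaaaaaatAGgtcacg
Hnrnph3-206 donor, intron chr10:63017611-63018040: atgatggtgGTATGTgtgtctaat
Hnrnph3-206 acceptor, same intron: ttttccttccattttatacAGgctatg
The Srsf3 intron of 2150 bases and the Srsf7 intron of 874 bases span the stop-bearing exons printed above for these genes. Thus the annotated retained intron transcript and the annotated poison exon transcript of each gene cover the same stretch.

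Nearly the whole set was expressed, and at high levels. At 1 TPM or more in every library 32 of 33 genes were detected, and 31 at 10 TPM or more. Srsf12 was not detected: it had 1.00 expected count in replicate 1 and was listed at 0 in replicates 2 and 3. Over the 33 genes the median level was 74.8, 80.1 and 62.4 TPM in replicates 1, 2 and 3, against 15.4, 16.2 and 15.1 TPM over the 9380 detected genes with a coding transcript. In bulk RNA of this kind, fewer cells expressing a gene and less RNA of it per cell cannot be told apart. On the log2 scale with 0.1 TPM added, the members' median lay 2.21 ± 0.14 above the median detected gene (SD, n = 3). The coefficient of variation between libraries had a median of 16.0% over members and 15.9% over all detected genes.

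Hnrnpa2b1, which binds nascent and exported messages, was highest at 409, 503 and 331 TPM. Hnrnpa3, a close relative, followed with 335, 397 and 258 TPM, but in the alignment-free table it had 95.9, 147 and 82.9 TPM. By its mean there it also ranked below Hnrnpk, Hnrnpf, Hnrnpab, Srsf5, Tra2a and Hnrnpc. Hnrnpf, which binds runs of G, had 285, 295 and 245 TPM, and Hnrnpk, which binds C-rich stretches, had 266, 287 and 228 TPM. The ranges of these neighbours overlap. Within the SR family Srsf5 was highest at 284, 222 and 198 TPM, and Tra2a, which with Tra2b binds GAA-rich enhancers, had 182, 155 and 142 TPM. These ranges do not overlap. Srsf3, the smallest SR protein and an export adaptor, had 106, 119 and 86.6 TPM and Tra2b 89.0, 120 and 77.0 TPM. Srsf2, a marker of nuclear speckles, had 74.8, 80.1 and 67.7 TPM and Srsf7, an SR protein with a zinc knuckle, had 66.2, 81.4 and 61.5 TPM. The other detected SR genes, Srsf1, Srsf4, Srsf6, Srsf9, Srsf10 and Srsf11, had means of 28.0 to 38.6 TPM. At the low end Hnrnph3 had 17.8, 23.2 and 7.88 TPM, Hnrnpr 14.8, 19.5 and 15.8 TPM and Hnrnpa0 23.4, 18.7 and 18.3 TPM. Hnrnph3 varied most among the detected members, with a coefficient of variation of 47.7%, and its lowest library was replicate 3.

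**Figure D2:**
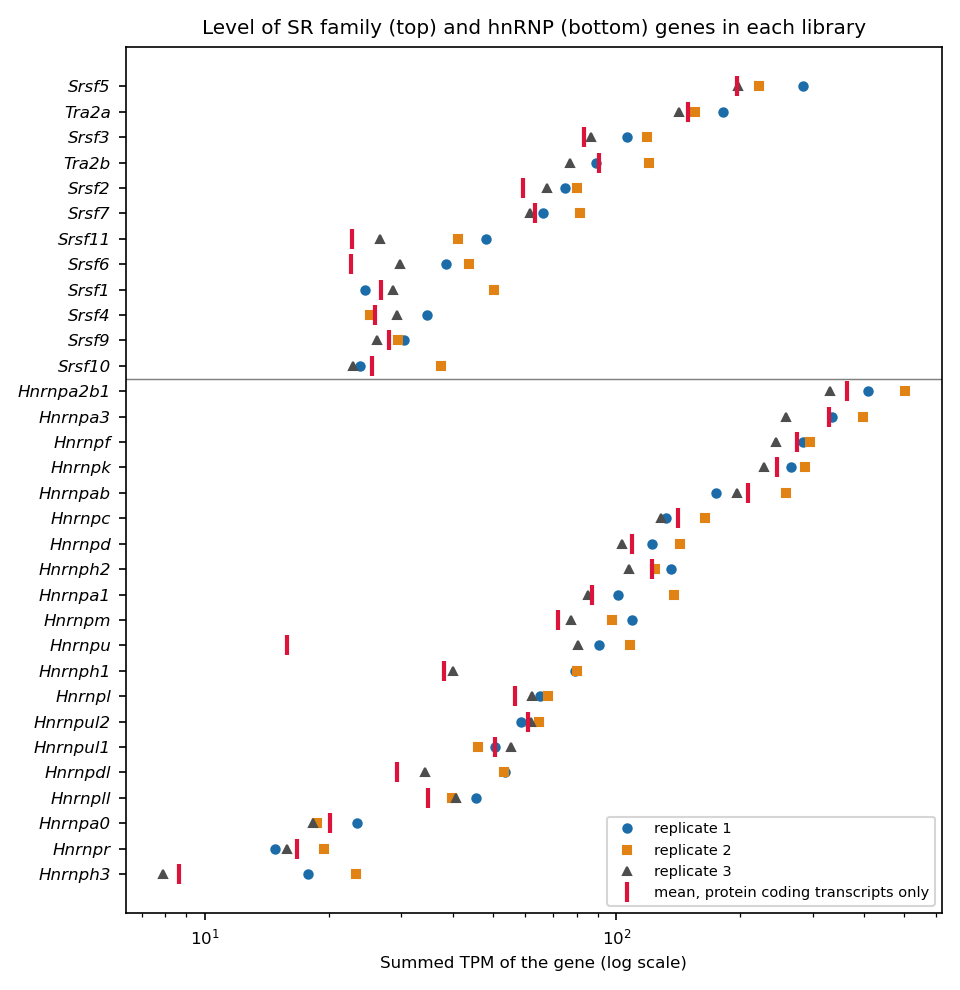
Summed TPM of each detected gene on a log axis, SR family above and hnRNP genes below the line, with circles for replicate 1, squares for replicate 2, triangles for replicate 3 and a red tick for the mean of protein coding transcripts only. Hnrnpa2b1 is highest at a mean of 414 TPM, and the red tick of Hnrnpu, at 15.8 TPM, lies far below its summed level of 80.7 to 108 TPM.

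Retained intron transcripts took a modest share of these genes. The median share over the 24 genes with such transcripts was 7.41%, 7.35% and 2.54% in replicates 1, 2 and 3, against 3.15%, 2.50% and 1.75% over 5880 detected genes. Members exceeded the median gene in every library, by the least in replicate 3. In the SR family the median was 9.50%, 10.1% and 3.93% over 10 genes, and among hnRNP genes 4.38%, 3.22% and 1.18% over 14 genes. Shares in the hnRNP group thus sat near those of all genes, and in replicate 3 below. No member reached 20% in all 3 libraries, whereas 8.47% of all 5880 genes did. At 10% or more there was 1 member, Srsf11, against 15.7% of all genes. The threshold of 20% would be passed by Srsf1 without replicate 1, and by Srsf11 without replicate 3.

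Within each gene the TPM of retained intron transcripts was set against that of coding transcripts, as a log2 ratio with 0.1 TPM added to each, and tested against 0 with limma's moderated test over all 5880 genes. The p-values measure only the spread between these 3 libraries. Of 24 members, 22 had lower retained intron than coding TPM at an adjusted p under 0.05 and 0 had higher. Across all genes 92.6% were called lower, so the members' count is close to the background, and 1.70% were called higher. The alignment-free table gave 22 lower and 0 higher, against 90.8% lower and 2.42% higher of all genes. There Hnrnph3 was called, and Hnrnpll was not (log2 ratio -0.78, adjusted p = 0.263). The ratio had a median of -3.45, -3.42 and -5.03 over members in replicates 1, 2 and 3, against -4.26, -4.55 and -4.82 over all tested genes. In the alignment-based table the 2 members not called were Srsf11 and Hnrnph3.

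Srsf11, an SR-related protein, had the highest mean share, 32.2% ± 14.7 (SD, n = 3). Its retained intron transcripts summed to 21, 15.3 and 4.15 TPM in replicates 1, 2 and 3, against 25.2, 22.4 and 20.6 TPM of coding transcripts. The coding level ranged little over the 3 libraries, while the retained intron level was far lower in replicate 3 than in the others. The log2 ratio was -1.03 ± 0.48 (SE; limma adjusted p = 0.0820), and in expected counts it was -1.64 with an adjusted p of 0.00713. Srsf11 has 11 annotated transcripts of this type, and the most abundant by its mean, Srsf11-213, accounted for 8.93, 4.32 and 0.80 TPM, below Srsf11-208 and Srsf11-203 in replicate 3. None of the 11 contains a whole intron of a coding transcript, so the share of Srsf11 follows the label and is no measure of whole introns kept.

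Hnrnph3, a G-run binder of the H group, had retained intron transcripts at 6.95, 4.49 and 0.760 TPM against 6.31, 13.6 and 5.96 TPM of coding transcripts. In replicate 1 they exceeded the coding transcripts, and in the other libraries they were lower. The log2 ratio was -1.42 ± 0.59 (limma adjusted p = 0.0578), and without replicate 1 it was -2.20 with an adjusted p of 0.00606. Summed over libraries it had the fewest reads of the detected members, 295, 764 and 487 expected counts over all its transcripts. It overlaps Rufy2 on the other strand over 2547 bases, a gene at a mean of 2.26 TPM. No source used here says if strand was kept, so reads of such pairs cannot be told apart.

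Srsf1 encodes a founding SR protein. Its retained intron transcripts had 2.32, 12.8 and 7.63 TPM against 22.1, 37.3 and 20.9 TPM of coding transcripts, shares of 9.50%, 25.4% and 26.7%. Replicate 1 was its lowest library, whereas 13 of 24 members were highest there and lowest in replicate 3, against 31.0% of all genes. The log2 ratio was -2.06 ± 0.45 (limma adjusted p = 0.00510). Nearly all of this TPM came from Srsf1-203, 759 bases long. It keeps an intron of a coding transcript, but all of its bases lie in exons of some coding transcript of the gene.

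Srsf3 had 19.2, 13.3 and 4.40 TPM of retained intron transcripts against 77.2, 96.7 and 76.2 TPM of coding transcripts, with a log2 ratio of -2.98 ± 0.47 (limma adjusted p = 0.00112). Srsf3-204, whose intron ends are printed above, made up 10.6, 7.43 and 2.75 TPM of it. Srsf5 had 31.1, 27.6 and 5.26 TPM against 233, 177 and 181 TPM, almost all from Srsf5-212 at 29.2, 25.7 and 4.81 TPM. Both genes had replicate 3 far below the other 2 libraries for the retained intron part, and neither showed a drop of that size in the coding part. Srsf6 had shares of 11.5%, 14.1% and 5.95%, Srsf7 of 9.49%, 9.08% and 5.02%, and Srsf2 of 6.93%, 6.06% and 2.42%. Tra2a (6.03%, 4.80% and 2.83%), Srsf4 (4.08%, 2.63% and 0.922%) and Tra2b (1.66%, 0.899% and 0.662%) had the lowest means in the SR family, although in replicate 3 Srsf2 and Srsf5 lay below Tra2a.

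Among the hnRNP genes with the highest shares, Hnrnpm had 16.6%, 8.99% and 1.63% on retained intron transcripts. Most of that in replicates 1 and 2 was Hnrnpm-213, at 17.5, 7.76 and 0.370 TPM, whereas in replicate 3 Hnrnpm-208 was higher at 0.810 TPM. Hnrnpm-213 is 591 bases long, and no Hnrnpm transcript of this label contains a whole intron of a coding transcript. Together they had 108, 71.5 and 26.6 expected counts, of 2847, 3937 and 4688 for the gene. Hnrnpl, which binds CA repeats, had 12.1%, 9.88% and 8.08%, the narrowest spread of these relative to its level. Hnrnpdl had 11.9%, 12.4% and 3.97%, and Hnrnpa2b1 12.9%, 9.21% and 4.26%. At the other end, the 2 retained intron transcripts of Hnrnpr were listed at 0 TPM in all 3 libraries.

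**Figure D3:**
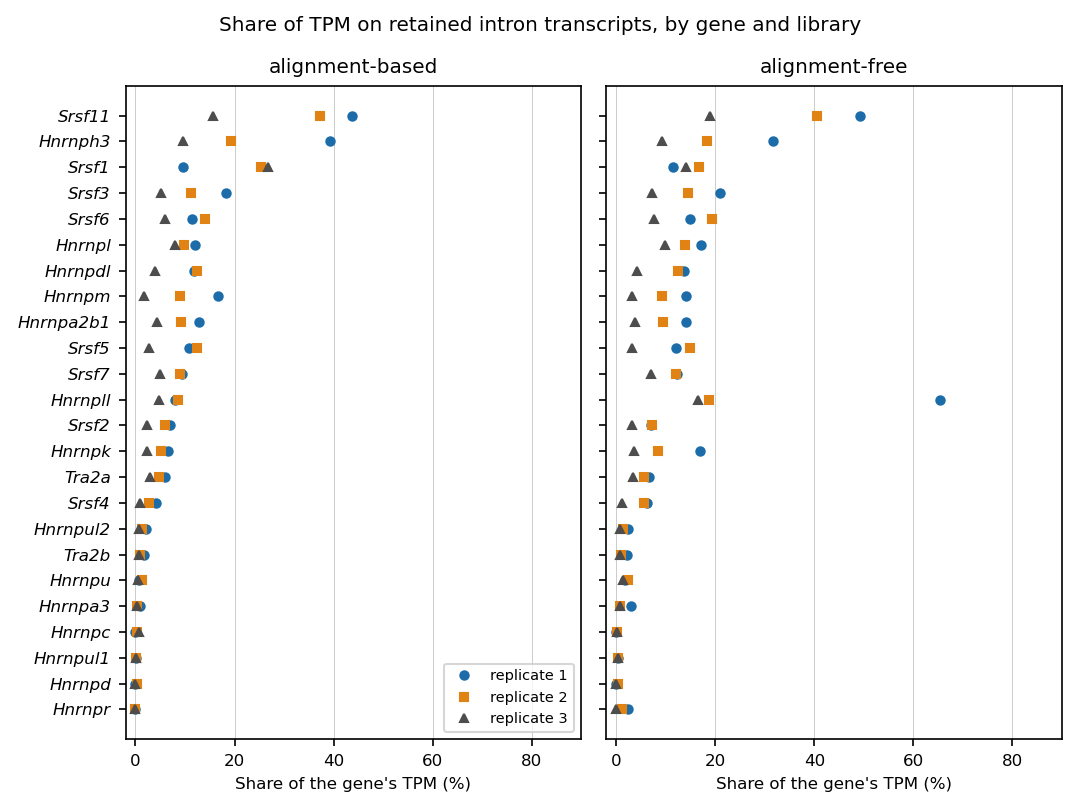
Share of each gene's TPM on retained intron transcripts, by library, in the alignment-based table (left) and the alignment-free table (right), genes ordered by the mean in the alignment-based table. Replicate 3 (triangles) lies left of the other libraries for most genes, Srsf1 is an exception, and Hnrnpll in replicate 1 stands at 65.4% in the alignment-free table against 7.90% in the alignment-based one.

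The retained intron share differed between libraries in a shared direction. Of 24 members, 18 had their lowest share in replicate 3, against 48.1% of all 5880 genes, and 13 were highest in replicate 1 and lowest in replicate 3, against 31.0% of all genes. A higher share in replicate 1 than in replicate 3 was seen in 19 members, against 64.4% of all genes, and the opposite in Hnrnpc, Hnrnpul1 and Srsf1. By the alignment-free quantification, 20 of 24 members were lowest in replicate 3, against 57.9% of all genes. Over whole libraries, retained intron transcripts took 3.84%, 3.4% and 2.67% of all TPM in replicates 1, 2 and 3. Depth moved the other way, with replicate 3 the deepest and replicate 1 the shallowest library, and the part of depth or of RNA quality in these shares was not tested. The nonsense-mediated decay share was lowest in replicate 3 in 9 of 21 members, against 24.3% of all 2904 genes, and higher in replicate 1 than in replicate 3 in 11 of 21, against 41.8%.

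Nonsense-mediated decay transcripts took a median of 7.23%, 6.07% and 4.94% of TPM over the 21 genes that have them, against 1.89%, 1.79% and 1.91% over 2904 detected genes. The members' median exceeded that of all genes in every library. It was 3.89%, 2.57% and 1.09% over 11 SR family genes and 11.4%, 10.4% and 9.44% over 10 hnRNP genes. The gap between the families was smaller in the alignment-free table, where the median was 10.5%, 11.0% and 6.48% over SR family genes and 12.1%, 17.2% and 10.8% over hnRNP genes. The threshold of 20% in every library was reached by 3 members, Hnrnpu, Hnrnpdl and Srsf6, against 11.6% of all genes. Set against coding TPM within the gene, with limma's moderated test over 2904 genes, 20 of 21 members were lower and 1 was higher at an adjusted p under 0.05. Across all genes 88.8% were called lower and 2.72% higher. By the alignment-free quantification, 17 members were lower, 1 was higher and 3 were not called (Srsf6, Hnrnpdl and Hnrnph3), against 87.3% lower and 3.52% higher of all genes. A share of 10% or more in every library was reached by 6 members, against 18.9% of all genes, and of 50% or more by Hnrnpu alone, against 2.58%.

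**Figure D4:**
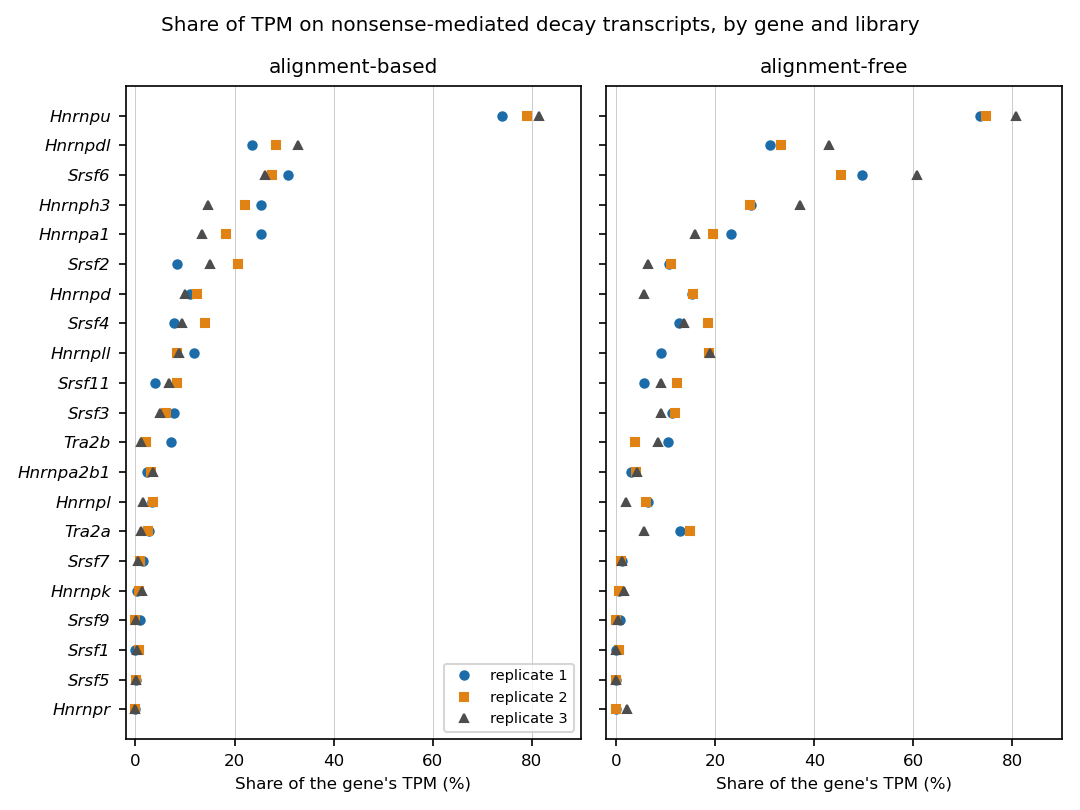
Share of each gene's TPM on nonsense-mediated decay transcripts, by library, in the alignment-based table (left) and the alignment-free table (right), genes ordered by the mean in the alignment-based table. Hnrnpu stands alone at 74.0% to 81.4% in the alignment-based table, and Srsf6 and Tra2a lie further right in the alignment-free table.

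Hnrnpu, a nuclear matrix and chromatin-associated RNA-binding protein also known as scaffold attachment factor A, was the exception. Its nonsense-mediated decay transcripts had 67.3, 85.2 and 65.7 TPM in replicates 1, 2 and 3, against 17.1, 17.1 and 13.2 TPM of its single coding transcript. The labelled transcripts were higher in 3 of 3 libraries, with a log2 ratio of 2.20 ± 0.22 (SE; limma adjusted p = 0.000891). Practically all of this came from Hnrnpu-206, at 66.8, 85.2 and 65.7 TPM. It has 2844 bases against 7640 in the coding Hnrnpu-201, only 9.39% of its bases lie outside coding exons, and the annotation tags it as a readthrough transcript that runs on past the coding transcript's end. In expected counts, with no correction for length, the 2 types stood at 2775, 5066 and 6658 against 2025, 2922 and 3828, and the log2 ratio was 0.68 with an adjusted p of 0.0767. Hnrnpu overlaps Cox20 on the other strand over 1586 bases, and Cox20 had a mean of 49.3 TPM. The part of that gene in the Hnrnpu values was not tested.

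Srsf6 had 11.9, 12.0 and 7.80 TPM on Srsf6-201, its only nonsense-mediated decay transcript, against 22.1, 25.6 and 20.2 TPM of coding transcripts. The labelled transcript was lower in all 3 libraries, with a log2 ratio of -1.11 ± 0.23 (limma adjusted p = 0.0101), and without replicate 3 the adjusted p was 0.0554. The alignment-free table turned the order round, at 15.3, 21.1 and 18.9 TPM against 10.9, 16.4 and 9.80 TPM, a log2 ratio of 0.59 (adjusted p = 0.111). Which of the 2 types is the more abundant in Srsf6 therefore depends on the quantification.

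Hnrnpdl, a regulator related to Hnrnpd, had 12.7, 15.1 and 11.2 TPM on nonsense-mediated decay transcripts against 34.4, 31.5 and 21.6 TPM of coding transcripts. The log2 ratio was -1.15 ± 0.24 (limma adjusted p = 0.00948), and -0.61 with an adjusted p of 0.102 in the alignment-free table. Both labelled transcripts contributed, Hnrnpdl-205 with 8.04, 8.17 and 4.32 TPM and Hnrnpdl-201 with 4.62, 6.89 and 6.92 TPM. Hnrnph3 had 4.49, 5.16 and 1.16 TPM against 6.31, 13.6 and 5.96 TPM, with an adjusted p of 0.0331 from limma that was 0.123 without replicate 2, 0.110 without replicate 3 and 0.0682 in the alignment-free table. Hnrnpa1, a splicing repressor and shuttling protein, had 25.6, 25.2 and 11.5 TPM against 75.3, 113 and 74.0 TPM, shares of 25.4%, 18.2% and 13.4%. Hnrnpd, also called AUF1 and known for binding AU-rich elements, had shares of 11.0%, 12.5% and 10%. Hnrnpll, known for splicing control of the phosphatase CD45 in lymphocytes, had 11.8%, 8.38% and 8.85%.

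In the SR family, transcripts with a stop in an exon that coding transcripts skip were below the coding transcripts in TPM for Srsf3, Tra2b and Tra2a, with shares that differed between the tables. Srsf3-201 had 8.16, 7.25 and 4.28 TPM against 77.2, 96.7 and 76.2 TPM of the coding Srsf3-202, and the gene's log2 ratio was -3.69 ± 0.28 (limma adjusted p = 0.000348). Tra2b-206 had 6.38, 2.62 and 0.840 TPM against 80.7, 116 and 75.5 TPM of coding transcripts. All nonsense-mediated decay transcripts of Tra2b took 7.23%, 2.18% and 1.09% in the alignment-based table, against 10.5%, 3.77% and 8.35% in the alignment-free table. For Srsf3 the shares were 7.73%, 6.07% and 4.94% in the alignment-based table, against 11.2%, 11.8% and 9.07% in the alignment-free table. Tra2a-202 had 4.79, 3.99 and 1.5 TPM against 166, 144 and 137 TPM. Srsf4 had shares of 7.72%, 14.0% and 9.35% over its 2 transcripts and Srsf11 of 3.89%, 8.37% and 6.74% over 3. Srsf2-204, which splices downstream of the stop it shares with a coding transcript, had 6.25, 16.7 and 10.1 TPM against 63.4, 58.0 and 55.9 TPM of coding transcripts. All 620 bases of Srsf2-204 lie in exons of coding transcripts. The nonsense-mediated decay transcripts of Srsf2 had 36.6, 130 and 136 expected counts, of 1825, 2450 and 3785 for the gene. In the alignment-free table they had 5.94, 7.61 and 3.38 TPM. On the other strand Srsf2 overlaps Mettl23 over 3194 bases and Mfsd11 over 655 bases, at means of 8.14 and 35.2 TPM. Tra2a overlaps Gm43980 there over 1612 bases, at a mean of 5.91 TPM. The part of these genes in the Srsf2 and Tra2a values was not tested. Srsf7 stayed at or below 1.45% in every library, Srsf9 at or below 0.889%, Srsf1 at or below 0.753% and Srsf5 at or below 0.192%. Srsf10 has no transcript of either label, and its coding share was 89.1%, 94.9% and 85.8%.

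**Figure D5:**
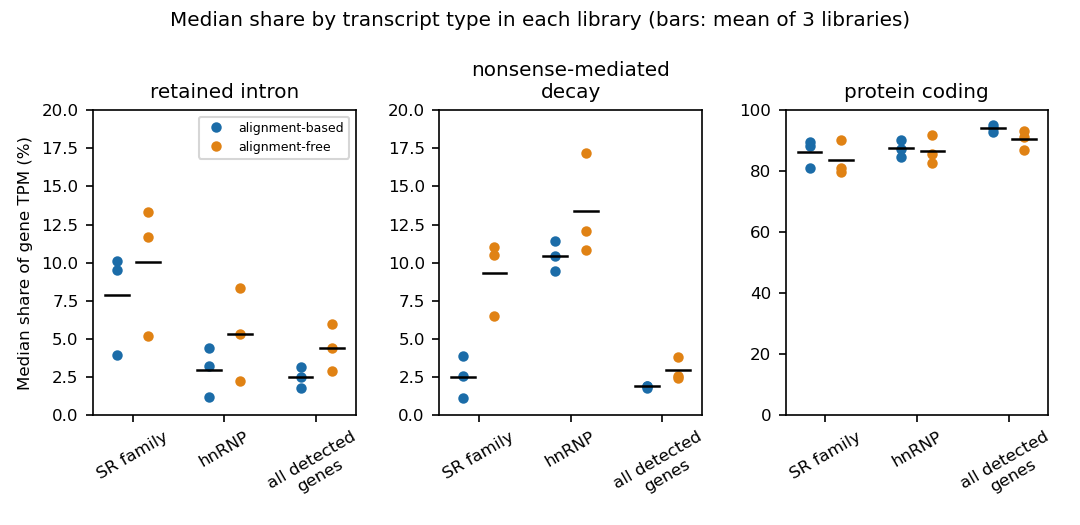
Median share of gene TPM on retained intron (left), nonsense-mediated decay (middle) and protein coding transcripts (right) over SR family genes, hnRNP genes and all detected genes, with 1 point per library, blue for the alignment-based and orange for the alignment-free table, and bars for the mean of 3 libraries. The y axis ends at 20% in the left and middle panels and at 100% in the right one. SR family genes lead for retained introns at a mean of 7.85% in the alignment-based table, and hnRNP genes lead for nonsense-mediated decay at 10.4%.

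Coding transcripts made up a median of 86.5%, 84.9% and 90.2% of TPM over the 26 detected genes with a retained intron or nonsense-mediated decay transcript, against 92.8%, 94.2% and 95.2% over 6421 such genes in all. Members were below the median of all genes in each library. The lowest coding share was that of Hnrnpu at 17.0% ± 1.6 (SD, n = 3). Hnrnph3 had 56.5% ± 20.1, Srsf6 61.3% ± 5.71, Srsf11 61.5% ± 14.0 and Hnrnpdl 62.2% ± 2.60. Of the 26, 24 had 50% or more coding TPM in every library, against 5703 of the 6421 genes. The alignment-free quantification gave 21 of 26 members, against 5498 of 6400 genes.

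The 2 quantifications of the same libraries were compared gene by gene, as the difference in share in percentage points, alignment-based minus alignment-free, with limma's moderated test over all genes. For nonsense-mediated decay shares 1 of 21 members was called at an adjusted p under 0.05, against 4.10% of 2586 genes tested. This was Srsf4, with shares of 7.72%, 14.0% and 9.35% in the alignment-based table, against 12.7%, 18.6% and 13.6% in the alignment-free table. The difference was -4.61 ± 0.287 (SE; limma adjusted p = 0.0395), lower in 3 of 3 libraries. The gene lies outside the 5 largest differences and is named because it was the one called. Without any 1 of the 3 libraries no member was called. For retained intron shares 0 of 24 members were called, against 0.339% of 5609 genes. For coding shares 0 of 26 were called, against 1.26% of 6265 genes. At an unadjusted p under 0.05 there were 7 members for retained intron, 7 for nonsense-mediated decay and 12 for coding shares, which compares with 26.1%, 24.8% and 28.9% of all genes tested. As differences of log2 ratios, limma called 3 members for retained intron (Hnrnpa3, Hnrnpu and Srsf6) and 3 for nonsense-mediated decay (Hnrnpll, Srsf5 and Tra2a), against 8.13% and 4.80% of all genes.

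Differences mostly had the same sign. The alignment-based retained intron share was the lower in 20 of 24 members on average, the nonsense-mediated decay share in 17 of 21, and the coding share was the higher in 22 of 26. Medians over all detected genes, as means of 3 libraries, differed in the same directions. They were 2.47% against 4.40% for retained intron, 1.86% against 2.94% for nonsense-mediated decay and 94.0% against 90.4% for coding shares. The share of all genes with each sign was not counted. Hnrnpll had the largest difference in retained intron share. It had 7.90%, 8.63% and 4.78% in the alignment-based table, against 65.4%, 18.7% and 16.4% in the alignment-free table, a mean difference of -26.4 ± 13.0 (limma adjusted p = 0.308). The source in replicate 1 is a single transcript, Hnrnpll-206, at 0.12 TPM alignment-based against 48.3 TPM alignment-free. In replicates 2 and 3 it had 0.10 and 0.0200 TPM against 3.78 and 4.21 TPM. Srsf6 had the largest difference in nonsense-mediated decay share, 30.9%, 27.5% and 26.2% against 49.7%, 45.4% and 60.8%, a mean of -23.7 ± 4.48 (limma adjusted p = 0.111). Tra2a had 2.63%, 2.57% and 1.05% in the alignment-based table, against 12.9%, 14.9% and 5.65% in the alignment-free one (difference -9.05 ± 1.91, limma adjusted p = 0.123). Hnrnph3 differed by -9.65 ± 5.28 in nonsense-mediated decay share, with -22.3 in replicate 3. Hnrnpdl differed by -7.53 ± 1.25, in the same direction in all 3 libraries, and Hnrnpll by -5.94 ± 3.63, with the opposite sign in replicate 1. For Srsf1 the sign of the retained intron difference varied, at -1.88, 8.74 and 12.6 percentage points in replicates 1, 2 and 3. Hnrnpk, Srsf11 and Hnrnpl differed by -4.83 ± 2.33, -4.11 ± 0.603 and -3.57 ± 0.808 in retained intron share.

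The gene level itself differed between tables for Hnrnpa3. It had 335, 397 and 258 TPM alignment-based against 95.9, 147 and 82.9 TPM alignment-free, a log2 difference of 1.63 ± 0.18 (SD, n = 3), where the median detected gene differed by 0.24. Only 0.141% of detected genes had a difference as high. Its coding transcript Hnrnpa3-204 had 192, 178 and 140 TPM alignment-based against 4.38, 31.5 and 20.6 TPM alignment-free. The level of Hnrnpa3 is therefore uncertain.

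Other genes of the splicing machinery, from lists chosen for this purpose, gave a wide range. Across all genes tested, 92.6% were called lower for retained intron and 88.8% for nonsense-mediated decay. List counts in which all or nearly all genes were lower are therefore near the background. SR protein kinases (Clk1 to Clk4, Srpk1, Srpk2 and Dyrk1a), which phosphorylate SR proteins, had a median retained intron share of 27.8%, 19.3% and 15.3% over 7 genes. Clk4 had the highest mean, 35.3%, and Dyrk1a the lowest, 0.577%. Their retained intron TPM was lower than coding TPM in 5 of 7 by limma, and Clk4 and Clk1 were not called. Their nonsense-mediated decay share was 16.5%, 21.8% and 16.1%, highest in Srpk2 at 37.4% and lowest in Srpk1 at 5.61%, with 3 of 6 called lower and 0 higher. The other regulators of splicing among RNA-binding proteins had a median retained intron share of 7.42%, 4.08% and 2.70%, highest in Tia1 at 43.2% and lowest in Taf15 at 0, with 24 of 25 called lower. Their nonsense-mediated decay share was 9.04%, 9.70% and 4.01%, highest in Tardbp at 43.7% and lowest in Celf2 at 0, with 16 of 17 called lower. Factors of nonsense-mediated decay had a median retained intron share of 12.9%, 4.68% and 4.07% over 8 genes, from 0 in Magohb to 21.8% in Smg5, and all 8 were lower than coding. Their nonsense-mediated decay share was 4.47%, 3.47% and 3.90% over 4 genes, highest in Smg6 at 17.9% and lowest in Smg1 at 0, and 4 of 4 were lower. The spliceosome core had 3.18%, 3.15% and 1.87% over 25 genes, from 0 in Cdc5l to 21.4% in Prpf31, and 25 of 25 were lower. Its nonsense-mediated decay share was 0.545%, 0.622% and 0.753% over 11 genes, highest in Sf1 at 6.53% and lowest in Snrpa at 0, and 11 of 11 were lower.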

How the data were processed

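Per the texts deposited beside the tables, the authors quantified each library in 2 ways against GENCODE M21 on mm10, once from an alignment to the transcriptome and once from the reads and an index. The names of aligner and quantifiers were not given in the sources used here. The deposited transcript tables hold expected counts (estimated, not whole) and TPM, and the first also holds lower and upper bounds of TPM, treated as scores since their level is not stated in the file headers. TPM was used as deposited and summed per gene and transcript type. In all, 141767 transcripts were matched between the tables and the annotation. Replicates were not pooled.

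Shares are percent of a gene's summed TPM. A gene was detected at 1 TPM or more in every library. Ratios used a pseudocount of 0.1 TPM, which understates ratios of low genes. limma 3.58.1 in R 4.3.3 fitted an intercept over the 3 libraries with a trend on the gene's level and Benjamini-Hochberg adjustment over all genes tested. For differences between tables, genes at 0 for the type, or constant, in both tables were left out. The fit was tested on simulated data. Tables and figures were made with pandas 2.3.3, numpy 2.4.6 and matplotlib 3.10.9.

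Members, marker and pathway lists, tests and alternatives were chosen with earlier results of these data known. The text names every Srsf and Tra2 gene, the 10 members with the highest share of each of the retained intron and nonsense-mediated decay types, the 5 highest and 5 lowest by level, the 5 largest differences between tables for each type and the extremes of each list. Genes named outside the rule were chosen after their values were seen. Some intron ends are not reported here.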

Additional observations from a re-analysis of the deposited data

How the results depend on the processing

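No paired analysis was possible because there is 1 group. With 3 libraries of that group, no outlier test was run. The counts of members with lower retained intron than coding TPM (22) and lower nonsense-mediated decay than coding TPM (20) stayed within 1.5 times under every alternative run: the alignment-free table, a pseudocount of 1 TPM, no filter or 10 TPM, no trend, expected counts and each library left out. In expected counts 0 members had higher nonsense-mediated decay than coding values, 1 member had 20% or more on such transcripts in every library, and the median shares over members were 3.58% for nonsense-mediated decay and 90.3% for coding transcripts. In the alignment-free table the median nonsense-mediated decay share was 9.58% and Srsf6 reversed, to 0.59. Thresholds of 10% and 50% gave 6 and 1 members for nonsense-mediated decay, and 10% gave 1 member for retained introns. Leaving out 1 library gave 0 to 1 members at 20% or more for retained introns, and 0 to 0 members called between tables for nonsense-mediated decay. As differences of log2 ratios 3 members were called for each of these types, and among genes at 10 TPM or more 1 was called for coding shares. The cause was not tested. Over single genes, 455 alternative values kept direction and call, 8 gained the call, 8 lost it and 1 reversed. How far short transcripts without bases of their own affect these shares was not tested.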

Other observations

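Hnrnph1, a G-run binding regulator of splicing, was singled out after its values were seen. It has no retained intron or nonsense-mediated decay transcript in the annotation, and its 15 processed transcripts took 51.2%, 38.8% and 34.5% of its TPM in replicates 1, 2 and 3, against 48.8%, 61.2% and 65.5% on 3 coding transcripts. Its processed transcripts had 40.7, 31.1 and 13.8 TPM and its coding transcripts 38.8, 48.9 and 26.2 TPM. Both parts were lowest in replicate 3. The gene counts among the detected members but is absent from the retained intron, nonsense-mediated decay and coding share counts above. Its coding share, 58.5% ± 8.63 (SD, n = 3), was nonetheless near those of Hnrnph3 and Srsf6.

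The deposited bounds of TPM did not always hold the deposited TPM. Among members' transcripts at 1 TPM or more, 22 of 160 lay above the upper bound in replicate 1, 10 of 169 in replicate 2 and 2 of 137 in replicate 3, and 0 lay below the lower bound. Over all transcripts the shares above were 16.4%, 8.64% and 5.32%. The bounds were not used as errors.

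The processed pseudogenes Hnrnpa1l2-ps and Hnrnpa1l2-ps2 have no coding transcript and were no members. Both were listed at 0 TPM in all 3 libraries of the alignment-based table.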
